A study of Mus musculus with 5 samples.

Results

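The 10 genes described here are the FoxO transcription factors Foxo1, Foxo3 and Foxo4 and 7 ubiquitin ligases named in work on muscle wasting: Trim63 (also called MuRF1), Fbxo32 (atrogin-1, or MAFbx), Fbxo30 (MUSA1), Trim32, Nedd4, Cblb and Traf6. They were taken by symbol from the 55357 genes of the deposited matrices, each of the 10 symbols matched 1 row, and each had at least 1 UMI in each of the 5 libraries. The tissue was the tibialis anterior, a fast muscle of the lower hind limb, of female C57BL/6 mice aged 26 months. Frail mice (n = 2) had a 31-item frailty index of 0.18 or more, and control mice (n = 3) had an index under 0.18. The mice carried no named allele and received no named agent, and all 5 were old, so no young muscle stands beside them. Dissociated muscle was run through 10x Genomics 3′ droplet sequencing, in which each unique molecular identifier (UMI) marks 1 captured transcript and each barcode stands for 1 droplet. The labels describe whole cells in one place and sorted nuclei in another, and the term barcode is used for both.

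Muscle loses protein when ubiquitin ligases tag it for the proteasome, and Trim63 and Fbxo32 are the classic ligases whose transcripts climb in fasting, denervation, disuse and glucocorticoid excess. FoxO factors switch them on when insulin and IGF signalling falls, because Akt no longer phosphorylates FoxO and it can stay in the nucleus. FoxO activity is set mainly by that phosphorylation and by location in the cell, neither of which a transcript count measures.

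The promoter of Trim63 is shown because FoxO factors act on it. FoxO proteins bind the core GTAAACA, read on either strand, and the capitals mark its 1 match, written TGTTTAC on the strand of the gene. The stretch is the 250 bases before the transcription start in the RefSeq table, at chr4:134314870-134315119 of GRCm38.p6, plus strand.
Trim63 promoter: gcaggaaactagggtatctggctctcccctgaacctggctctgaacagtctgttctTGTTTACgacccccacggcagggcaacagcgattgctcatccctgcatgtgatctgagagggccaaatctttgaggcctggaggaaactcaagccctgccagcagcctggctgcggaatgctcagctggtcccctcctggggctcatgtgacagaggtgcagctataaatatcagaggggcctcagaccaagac
The match begins 194 bases before the start. Promoter windows from 250 bases before to 50 after a start were found for 8 of the 10 genes, 9 windows in all, and 1 of these 9 held the core. Among 32851 such windows of the genome, 1199 (3.65%) held it. A match is a description of the letters and does not show binding.

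After removal of barcodes with fewer than 200 genes or more than 10% mitochondrial UMIs, 9351 and 10517 barcodes remained in the frail libraries, against 8650, 9854 and 12088 in the controls, which was 50460 of 56922 in all. They held 66301294 to 88089633 UMIs per library, and 17 to 35 barcodes were shared by each pair of libraries. Lineages were gated on 1 gene each: Cdh5 for endothelium, Pdgfra for fibro-adipogenic progenitors, Rgs5 for mural cells, C1qa for macrophages and Pax7 for satellite cells. A gated barcode held at least 1 UMI of its gene and none of the other 4. A barcode whose Ckm and Acta1 transcripts made up at least 5% of its UMIs went to the myofibre gate, whether or not it held a gate gene of another lineage, and 7 of 9 and 61 of 74 of these held none in frail libraries, against 211 of 321, 553 of 782 and 178 of 250 in controls. The marker list of each lineage had its highest sum in its own gate in every library, except that the satellite list was higher in the myofibre gate, and that list includes the muscle filament gene Des. The gates were still mixed. Across libraries the macrophage gate held 2485 to 5641 CPM of mural markers and 2594 to 4882 CPM of fibro-adipogenic markers, beside 6317 to 13176 CPM of its own. The mural gate held 3613 to 6810 CPM of fibro-adipogenic markers, beside 7265 to 20191 CPM of its own. A level in a gate is therefore not that of a pure lineage. Outside the myofibre gate, barcodes with gate genes of more than 1 lineage fell in no gate and held 41.6% and 47.9% of all UMIs in the frail libraries, against 51.5%, 59.3% and 47.5% in the controls. Control 3 alone carried keratin transcripts, with 1332 CPM for the 4 epithelial markers against at most 0.389 CPM in any other library.

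The libraries differed in myofibre barcodes, in a comparison that did not pass its test. The myofibre gate held 9 and 74 barcodes in frail 1 and frail 2, against 321, 782 and 250 in controls 1, 2 and 3. These were 0.0962% and 0.704% of retained barcodes in frail libraries, against 3.71%, 7.94% and 2.07% in controls (exact two-sided permutation test, p = 0.2, adjusted p = 0.3 over the 6 gates, where 10 splits allow no p below 0.1). Over all barcodes, the 12 myofibre markers summed to 113 and 708 CPM in frail libraries and to 6512, 12862 and 3174 CPM in controls. All 12 lay below every control in both frail libraries, and none passed edgeR at an adjusted p of 0.05. The barcodes of the myofibre gate held 13127 and 163710 UMIs in frail libraries, against 1739764, 3416854 and 947881 UMIs in controls. The parts of barcode number and of UMIs per barcode in the marker sums were not tested.

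Across the lineages the 10 genes sorted into different patterns, given as plain CPM (a gene's UMIs per 1000000 UMIs of the same gate and library) averaged over the 5 libraries. The 2 classic ligases stood highest in the myofibre gate. Foxo1, Foxo3 and Fbxo30 stood highest in the satellite gate, and Nedd4 and Cblb in the fibro-adipogenic gate. Foxo4 and Traf6 had their highest mean in the endothelial gate. By the tests below with TMM, Foxo4 was higher in the myofibre than in the endothelial gate, and no pair of non-myofibre gates differed in Traf6. Pairs of gates were tested with edgeR's quasi-likelihood test with library as a block and Benjamini-Hochberg adjustment within each pair. Of 150 tests over the 10 genes and 15 pairs of gates, 76 passed, and most pairs had a share near that of all 14072 genes. Between the endothelial gate and the fibro-adipogenic, mural, macrophage and satellite gates, 6, 4, 4 and 4 of the 10 genes differed, against 56.6%, 49.7%, 48.4% and 46% of all genes. Between the fibro-adipogenic gate and the mural, macrophage and satellite gates, 5, 6 and 2 differed, against 47.2%, 51% and 36.7%. Mural and macrophage gates differed in 2 (39.3%), mural and satellite gates in 3 (40.6%), and macrophage and satellite gates in 4 (45.9%). Contrasts with the myofibre gate passed in 5 genes for the endothelial gate (67.9%), 9 for the fibro-adipogenic (67.8%), 7 for the mural (67.7%), 7 for the macrophage (68.4%) and 8 for the satellite gate (56.8%). The myofibre gate holds a few very abundant transcripts, and the scaling decides part of its contrasts: TMM left the median gene 0.57 lower on the log2 scale in that gate than in the endothelial gate, and scaling by total UMIs alone left it 1.80 lower. With TMM, 16 of the 50 contrasts with the myofibre gate were higher there and 20 lower. Without TMM, 12 were higher and 34 lower.

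Foxo1, the FoxO factor tied to muscle atrophy and to endothelial quiescence, averaged 144 ± 42.8 CPM in the satellite gate (SD, n = 5 libraries). It averaged 104 ± 13.0 CPM in the fibro-adipogenic gate, 76.6 ± 13.4 CPM in the endothelial gate, 57.6 ± 23.3 CPM in the mural gate and 49.2 ± 16.4 CPM in the macrophage gate. Foxo1 was higher in the satellite than in the macrophage gate by a log2 difference of 1.63 (SE 0.24, adjusted p = 2.04e-06). Of the neighbours in this order, only the endothelial and mural gates differed, with an adjusted p of 0.0247 that became 0.0544 without TMM. Satellite cells are the stem cells of muscle, and FoxO factors keep them quiescent. The myofibre gate had 22.6 ± 18.4 CPM of Foxo1.

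Foxo3, the factor through which Fbxo32 was first tied to FoxO in mouse muscle, followed a similar order, with 69.1 ± 22.3 CPM in the satellite gate and 55.7 ± 6.43 CPM in the fibro-adipogenic gate (SD, n = 5). The endothelial gate was its lowest outside myofibres, at 30.2 ± 5.77 CPM, and lay below the next gate, macrophages, by a log2 difference of 0.59 in favour of macrophages (SE 0.13, adjusted p = 0.000406). In the myofibre gate it was at 8.58 ± 6.95 CPM and lower than in each of the other 5 gates under both scalings. Foxo4, the third FoxO factor of the set, had 18.8 ± 1.62 CPM in the endothelial gate and 11.1 ± 2.70 CPM in the macrophage gate, a log2 difference of 0.71 (SE 0.26, adjusted p = 0.0250). Its contrast of myofibre over endothelial gate was 1.30 with TMM and 0.06 without it. It was higher in the myofibre gate in 5 of 5 pairs with TMM and in 2 of 5 without it, those with the fibro-adipogenic and macrophage gates.

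Trim63, the RING ligase of the sarcomere that ubiquitinates myosin heavy chain and troponin, stood apart in the myofibre gate. It averaged 485 ± 298 CPM there (SD, n = 5) and 6.85 ± 12.3 CPM or less in each other gate. The log2 difference of myofibre over mural gate, its next highest, was 7.48 (SE 0.43, adjusted p = 1.52e-13), and 6.29 without TMM. A Trim63 UMI was present in 4 of 9 and 36 of 74 myofibre barcodes in frail libraries, against 153 of 321, 434 of 782 and 56 of 250 in controls. In the endothelial gate 0.0615% and 0.690% of frail barcodes had one, against 0.420%, 2.65% and 0.594% of control barcodes. Median depth was 1210 to 2719 UMIs per barcode in the myofibre gate and 3345 to 4162.5 UMIs in the endothelial gate. The myofibre gate held 57.9% and 54.0% of all Trim63 UMIs in frail libraries, against 68.1%, 61.9% and 46.4% in controls.

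Fbxo32, the F-box substrate receptor of an SCF ligase, had UMIs in every gate. It averaged 307 ± 212 CPM in the myofibre gate, 66.5 ± 12.6 CPM in the mural gate and 25.3 ± 7.40 CPM in the endothelial gate (SD, n = 5). The mural gate exceeded the endothelial gate by a log2 difference of 1.31 (SE 0.32, adjusted p = 0.00161), and the myofibre gate exceeded the mural gate by 3.23 with TMM and 2.13 without it. Only 0.135% and 4.14% of Fbxo32 UMIs lay in the myofibre gate in frail libraries, against 23.6%, 25.5% and 2.83% in controls. Most Fbxo32 UMIs thus lay in barcodes outside that gate in each library.

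Cblb, a ligase that in unloaded mouse muscle targets the insulin receptor substrate IRS1, had 74.0 ± 9.01 CPM in the fibro-adipogenic gate (SD, n = 5). Its next gate, satellite cells, had 28.4 ± 15.01 CPM, a log2 difference of 1.37 (SE 0.21, adjusted p = 1.94e-06). Nedd4, a HECT ligase with roles in growth factor receptor traffic, had 639 ± 33.6 CPM in the fibro-adipogenic gate and 177 ± 53.8 CPM in the macrophage gate, a log2 difference of 1.82 (SE 0.24, adjusted p = 7.22e-08). The satellite gate, at 573 ± 99.2 CPM, and the mural gate, at 498 ± 47.0 CPM, did not differ from the fibro-adipogenic gate by this test (adjusted p = 0.902 and 0.107).

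Trim32, a ligase of desmin and thin filament proteins whose loss causes a limb-girdle dystrophy in humans, averaged 13.1 ± 1.79 CPM in the fibro-adipogenic gate and 5.92 ± 0.667 CPM in the endothelial gate, a log2 difference of 1.14 (SE 0.19, adjusted p = 3.24e-06). Fbxo30, an F-box ligase under the control of BMP signalling in muscle, ranged from 50.9 ± 11.5 CPM in the endothelial gate to 75.2 ± 29.7 CPM in the satellite gate, a log2 difference of 0.66 (SE 0.15, adjusted p = 0.000495). Traf6, a ligase that passes on inflammatory receptor signals, varied least between gates by these tests, at 8.29 ± 2.29 to 13.9 ± 0.927 CPM outside myofibres (SD, n = 5). None of its 10 pairs of non-myofibre gates passed with TMM, and 1 passed without it.

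**Figure D1:**
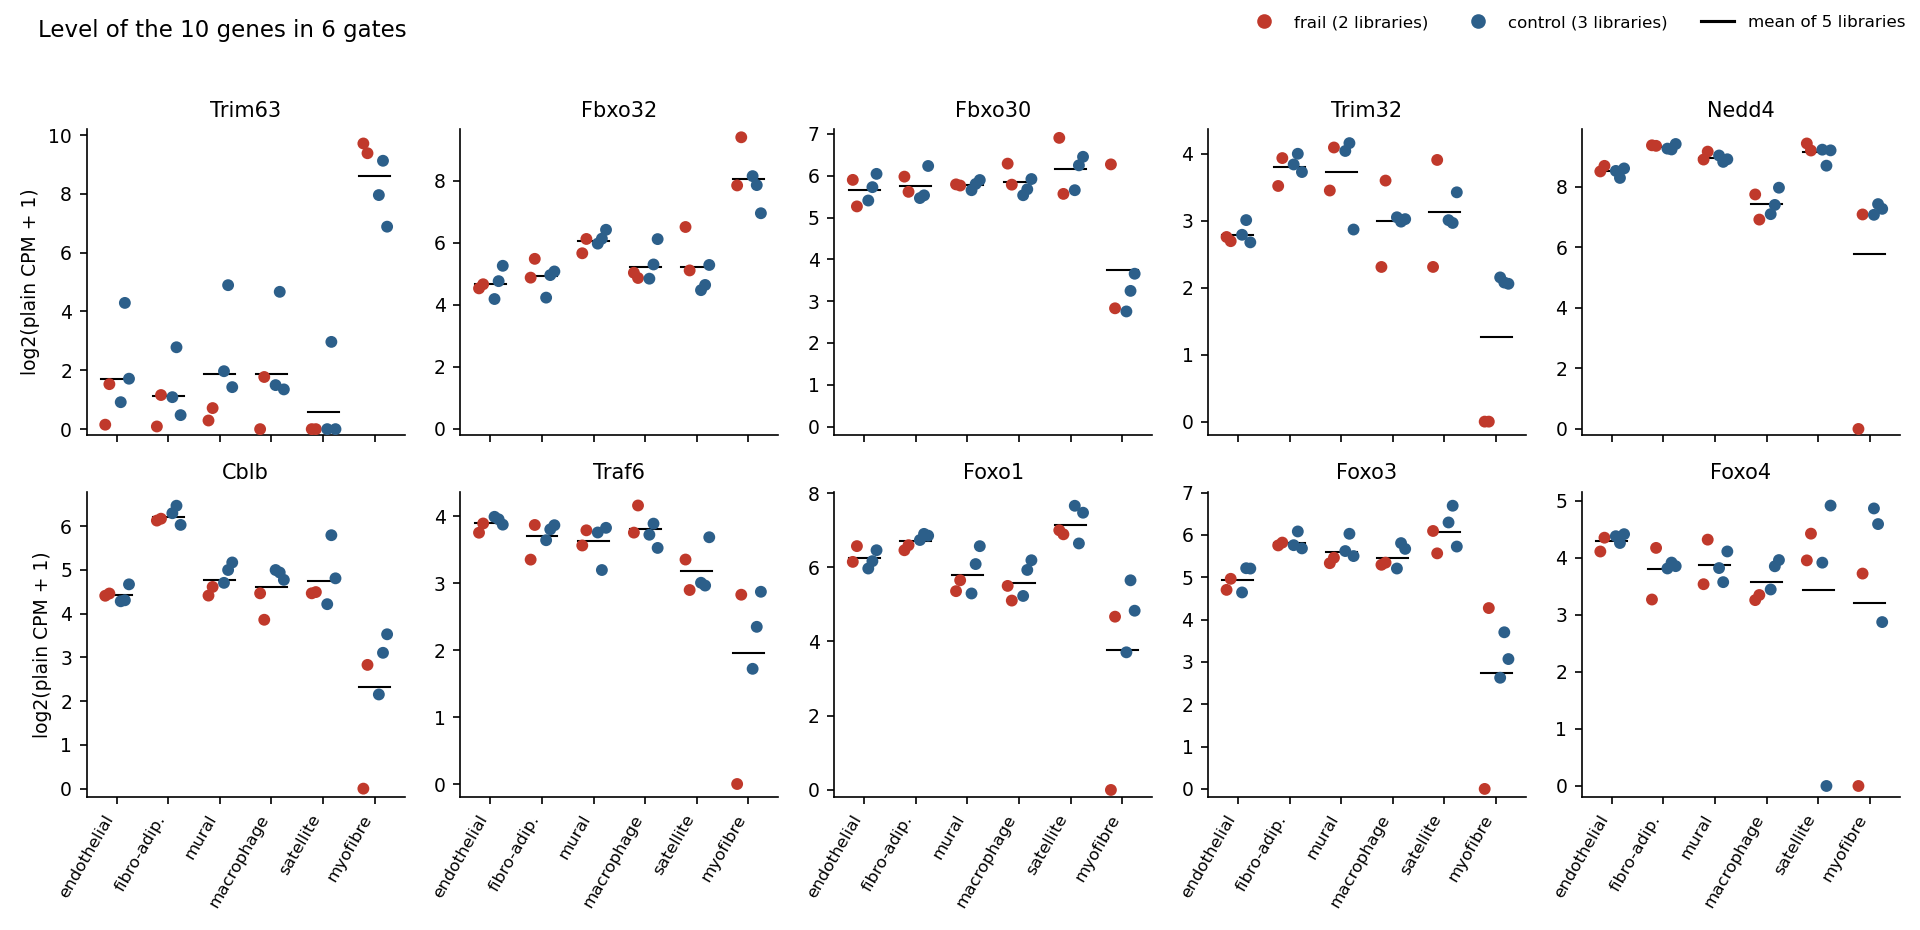
Level of the 10 genes in each of 6 gates, as log2(plain CPM + 1) on the vertical axis, with 1 panel per gene, red points for the 2 frail libraries, blue points for the 3 control libraries and a line at the mean of the 5. Trim63 stands apart in the myofibre gate at a mean of 485 CPM, while Traf6 stays between 8.29 and 13.9 CPM on average in the other 5 gates.

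Frail and control libraries were then compared for every gene over all barcodes with edgeR's quasi-likelihood test. Of the 10 genes 0 passed an adjusted p of 0.05, and so did 0 of 19989 genes (0%). At an unadjusted p of 0.05, 0 of the 10 and 1119 genes (5.6%) passed. DESeq2 called 323 of 21371 genes (1.51%) and none of the 10. Of the 10 genes, 9 had a log2 fold change of frail over control below 0, with a median of -0.15, against 49.7% of all genes below 0 and a median of 0.00. Only Cblb had both frail libraries below every control, and none had both above, where 9.94% and 9.81% of all genes did so.

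The FoxO transcripts differed little in the whole suspension. Foxo1 had 71.1 and 86.6 CPM in the frail libraries, against 70.1, 85.5 and 102 CPM in the controls. The groups overlapped, and the log2 fold change was -0.14 (SE 0.18, 95% interval -0.58 to 0.30, adjusted p = 0.966). Foxo3 had 39.5 and 43.5 CPM in the frail libraries, against 39.8, 51.0 and 46.9 CPM in the controls. Frail 2 lay inside the control range, and the log2 fold change was -0.17 (SE 0.16, 95% interval -0.55 to 0.21, adjusted p = 0.956). Foxo4 had 12.3 and 20.4 CPM in the frail libraries, against 16.1, 18.3 and 16.7 CPM in the controls. The 2 frail libraries were the lowest and the highest of the 5, and the log2 fold change was -0.09 (SE 0.22, 95% interval -0.61 to 0.43, adjusted p = 0.985).

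Trim63 had 0.281 and 2.99 CPM in the frail libraries (19 and 202 UMIs), against 9.55, 44.3 and 2.71 CPM in the controls (633, 3077 and 239 UMIs). Frail 1 was the lowest library and control 2 the highest, while frail 2 lay above control 3. The log2 fold change was -3.61 with a wide interval (SE 1.72, 95% interval -8.18 to 0.96, adjusted p = 0.934). It was -6.07 without frail 2 and -1.96 without control 2. The summed myofibre markers were lowest in frail 1 and highest in control 2 in the same sums, and their part in the Trim63 difference was not tested. Fbxo32 had 32.8 and 39.4 CPM in the frail libraries, against 31.3, 44.4 and 46.6 CPM in the controls. Both frail libraries lay inside the control range, and the log2 fold change was -0.20 (SE 0.20, 95% interval -0.67 to 0.28, adjusted p = 0.956).

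Cblb had 39.3 and 41.5 CPM in the frail libraries, against 43.6, 46.6 and 45.9 CPM in the controls. Its groups did not overlap but lay close, with a log2 fold change of -0.19 (SE 0.13, 95% interval -0.50 to 0.13, adjusted p = 0.937). Nedd4 had 502 and 514 CPM in the frail libraries, against 461, 422 and 540.2 CPM in the controls, and was the only gene of the set with a log2 fold change above 0, at 0.08 (SE 0.17). Traf6 had 10.9 and 13.6 CPM in the frail libraries, against 13.5, 13.5 and 13.2 CPM in the controls, where frail 1 alone was lower. Trim32 at 7.90 and 11.6 CPM in frail libraries, against 10.3, 10.9 and 9.80 CPM in controls, overlapped, as did Fbxo30 at 60.9 and 44.3 CPM in frail libraries, against 43.8, 48.9 and 68.6 CPM in controls. The intervals of these 10 fold changes, Trim63 apart, lay between -0.67 and 0.54, and each spanned 0. For each gene, a change of either sign inside its own interval remains possible.

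**Figure D2:**
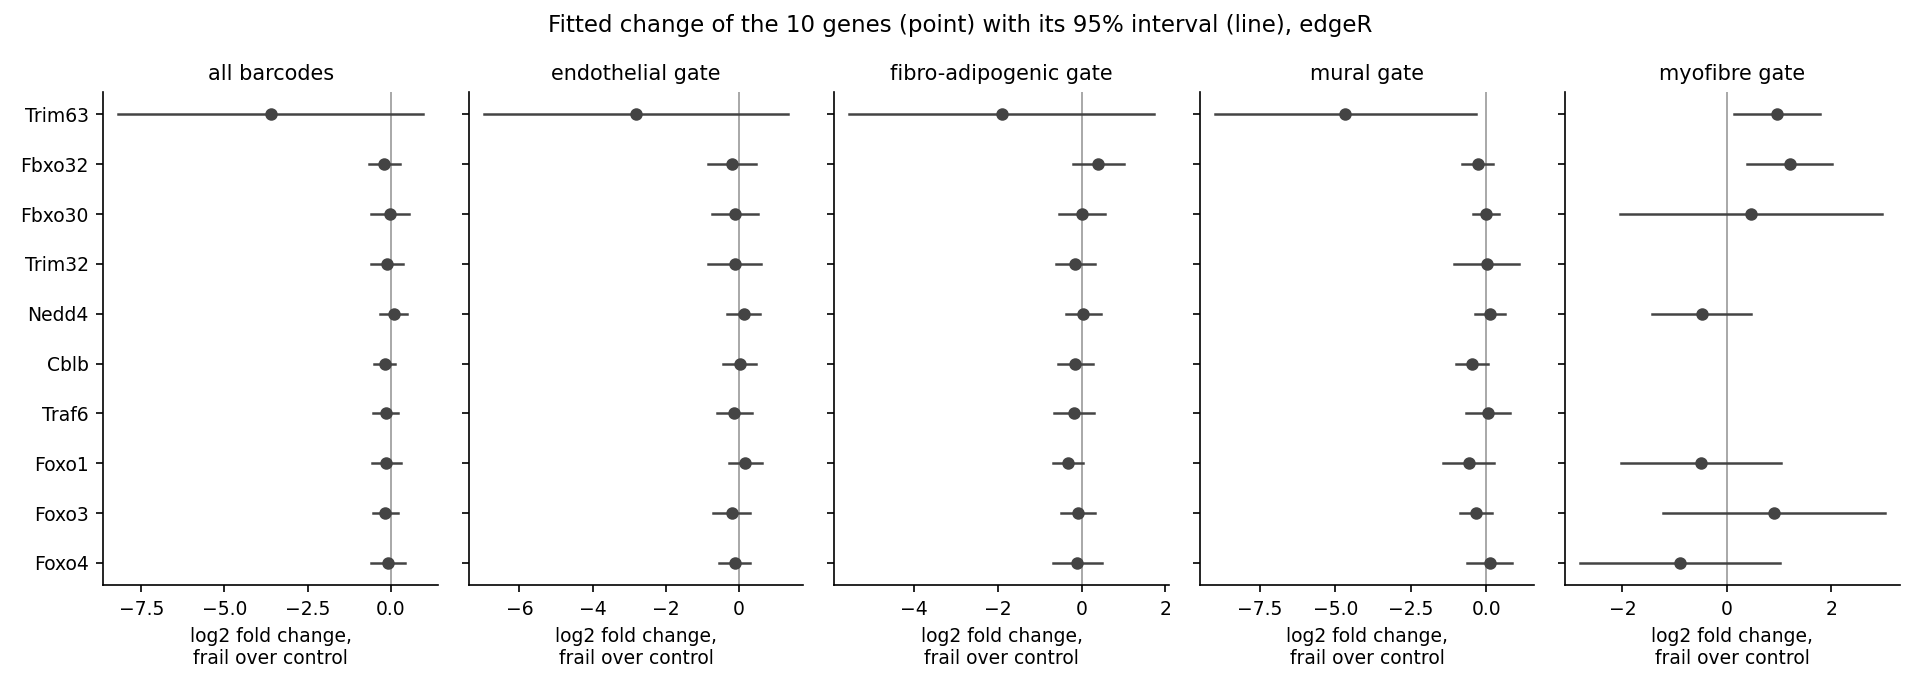
Log2 fold change of frail over control for the 10 genes, with 95% intervals from edgeR, over all barcodes and in the endothelial, fibro-adipogenic, mural and myofibre gates. Every interval drawn for all barcodes spans 0, and gaps mark Trim32, Cblb and Traf6, which had too few UMIs for a test in the myofibre gate.

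In the myofibre gate, both classic ligases were higher in frail libraries before adjustment and not after it. Trim63 had 838 and 666 CPM in the frail libraries (11 and 109 UMIs), against 248, 557 and 117 CPM in the controls (431, 1904 and 111 UMIs). Both frail libraries lay above every control, and the 11 UMIs of frail 1 gave an exact Poisson interval of 418 to 1499 CPM, which takes in control 2. The interval of frail 2, 547 to 803 CPM, takes in control 2 as well. By fibre type, barcodes led by Myh1 or Myh2 had 694 and 346 CPM of Trim63 in frail libraries, against 298, 713 and 157 CPM in controls, which overlapped. Barcodes led by Myh4, the fastest myosin, had 0 and 819 CPM in frail libraries, against 229.5, 479 and 92.4 CPM in controls, with only 4 such barcodes in frail 1. Over the whole gate the log2 fold change was 0.96 (SE 0.42, 95% interval 0.13 to 1.80, edgeR adjusted p = 0.572), and lay between 0.38 without frail 2 and 1.76 without control 2. With barcodes that held no other gate gene it was 1.03. Fbxo32 had 229 and 672 CPM in the frail libraries (3 and 110 UMIs), against 282, 230.3 and 122 CPM in the controls (490, 787 and 116 UMIs). Frail 2 was above every control and frail 1, with 3 UMIs, was inside their range. The log2 fold change was 1.21 (SE 0.41, 95% interval 0.39 to 2.02, edgeR adjusted p = 0.502), and without frail 2 it was -0.95.

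Of the 10 genes, 7 could be tested in the myofibre gate, 0 passed, and 8 of 5543 genes did (0.144%). Trim63 was the 1 gene of the 7 with both frail libraries above every control, against 8.23% of all genes tested, and 28.3% of all genes lay below every control. The median log2 fold change of the 7 was 0.46, against -0.23 for all genes. That median is the value of Fbxo30, which rests on 1 UMI in each frail library and was -0.39 without frail 1. The 13127 UMIs of frail 1 in this gate make 1 UMI worth 76.2 CPM, and a gene at 0 UMIs there could stand at up to 228.5 CPM by a floor of 3 counts. Foxo1, Foxo3, Foxo4, Nedd4, Trim32, Cblb and Traf6 had 0 UMIs in frail 1, so their myofibre levels there were not detectable at this depth. Foxo1 had 24.4 CPM in frail 2, against 12.1, 49.2 and 27.4 CPM in the controls. Nedd4 had 134 CPM in frail 2, against 133, 171 and 153 CPM in the controls. Both values of frail 2 lay inside the control range.

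The barcodes near the limit of the myofibre gate had the following values. With Ckm and Acta1 at 5% to 10% of UMIs, just inside, Trim63 had 838 and 408 CPM in frail libraries, against 248, 602 and 134 CPM in controls. At 2% to 5%, just outside, it had 229 and 195 CPM in frail libraries, against 195, 681 and 120 CPM in controls. Fbxo32 had 229 and 488 CPM just inside in frail libraries, against 293, 254 and 125 CPM in controls. Just outside it had 917 and 283 CPM in frail libraries, against 156, 189.6 and 125 CPM in controls. Frail 1 had 9 barcodes just inside and 3 just outside, and none at 10% or more.

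**Figure D3:**
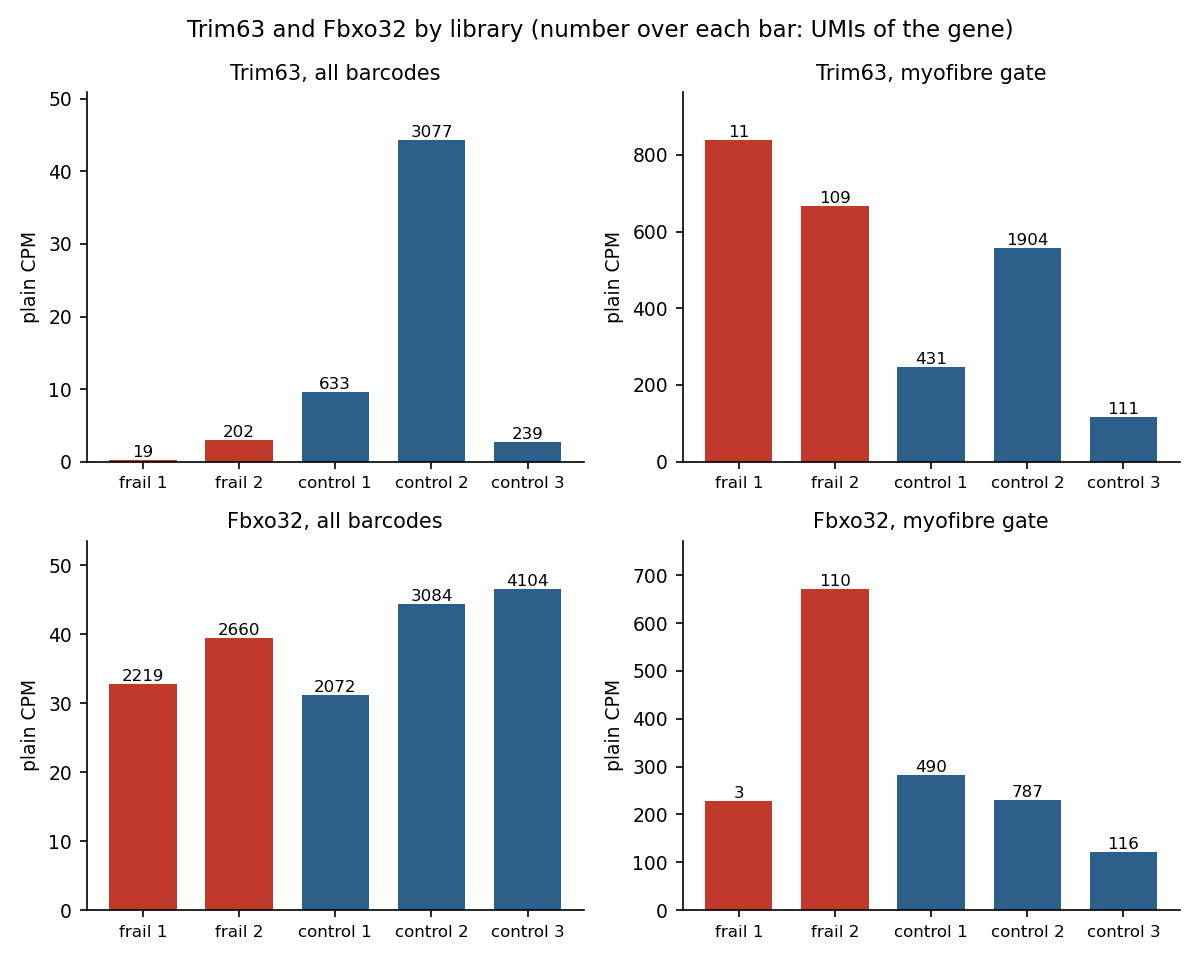
Plain CPM of Trim63 and Fbxo32 in each library over all barcodes and in the myofibre gate, as bars from 0 with the UMIs behind each bar written above it, frail libraries in red and control libraries in blue. In the myofibre gate the frail bars of Trim63 stand at 838 and 666 CPM, on 11 and 109 UMIs, and over all barcodes at 0.281 and 2.99 CPM.

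Since each control held more myofibre barcodes and marker UMIs than either frail library, both ligases were also set against the UMIs of the 12 myofibre markers in the same sums. Trim63 had 51.9 and 32.7 UMIs per 10000 marker UMIs in the myofibre gate of frail libraries, against 12.1, 27.7 and 5.73 in controls. Both frail ratios were above every control (exact two-sided permutation test, p = 0.2, adjusted p = 0.267 over the 4 ratios tested, where the smallest possible p is 0.1). Over all barcodes the Trim63 ratios were 24.8 and 42.3 in frail libraries, against 14.7, 34.4 and 8.55 in controls, and overlapped (exact p = 0.3, adjusted p = 0.3). Fbxo32 had 14.2 and 33.0 UMIs per 10000 marker UMIs in the myofibre gate of frail libraries, against 13.7, 11.5 and 5.99 in controls. Both were above every control (exact p = 0.1, the smallest possible, adjusted p = 0.2), frail 1 by a ratio that rests on 3 UMIs. Over all barcodes, where most Fbxo32 UMIs lay outside the myofibre gate, its ratios were 2899.5 and 557 in frail libraries, against 48.0, 34.5 and 147 in controls (exact p = 0.1, adjusted p = 0.2). In the same sums the CPM of Fbxo32 overlapped between groups and the marker sums did not. This ratio therefore mainly carries the marker sums and gives no level of Fbxo32 per fibre.

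Outside the myofibre gate, the low Trim63 counts ran beside the myofibre markers. In the endothelial gate the markers summed to 87.5 and 397 CPM in frail libraries, against 951, 3905 and 1234 CPM in controls. Trim63 there was at 0.111 and 1.89 CPM in frail libraries, against 0.887, 18.6 and 2.28 CPM in controls. Control 2 was highest for both in the endothelial, fibro-adipogenic, mural, macrophage and satellite gates. Endothelial Trim63 per 10000 marker UMIs was 12.7 and 47.5 in frail libraries, against 9.33, 47.6 and 18.5 in controls. The frail 1 ratio rests on 1 Trim63 UMI. In the fibro-adipogenic gate the ratios were 11.8 and 61.5 in frail libraries, against 17.0, 27.7 and 5.70 in controls, and in the mural gate 14.9 and 24.01 in frail libraries, against 12.2, 69.4 and 17.7 in controls. Some of these lay above every ratio of the myofibre gate, where 51.9 was the highest, and in the macrophage gate frail 2 reached 154 on 5 UMIs. Fbxo32 gave 2519 and 611 per 10000 marker UMIs in the endothelial gate of frail libraries, against 180.4, 66.8 and 301 in controls, far above its ratio in the myofibre gate. How much of either transcript in these gates was free RNA from broken fibres was not tested.

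**Figure D4:**
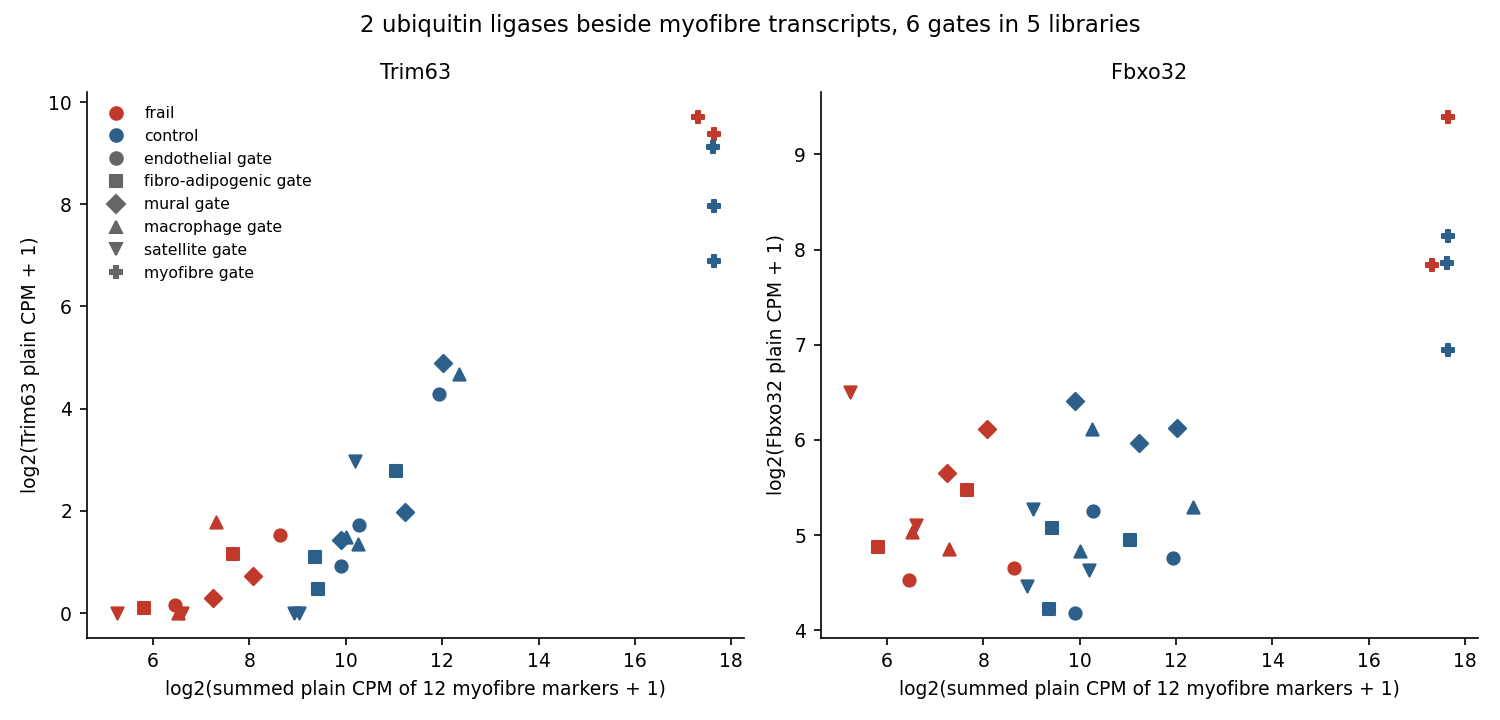
Trim63 and Fbxo32 (vertical axis, plain CPM, log scale) against the summed CPM of 12 myofibre markers (horizontal axis, log scale) in 6 gates of 5 libraries, frail in red and control in blue. Over the 5 gates other than the myofibre gate, Trim63 runs from 0 to 28.8 CPM and is highest in control 2, and Fbxo32 runs from 17.2 to 89.7 CPM.

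In the mural gate, Trim63 had 0.226 and 0.643 CPM in the frail libraries (1 and 2 UMIs), against 2.92, 28.8 and 1.69 CPM in the controls (10, 116 and 11 UMIs). Both frail libraries lay below every control, and the log2 fold change was -4.67 (SE 1.77, 95% interval -8.98 to -0.36, edgeR adjusted p = 0.893). The gene passed the low-count filter in this gate only through controls 1 and 2, and fell under it without either of them. The fold change and its interval are therefore a description and give no support for a frail difference. The myofibre markers summed to 152 and 268 CPM there in frail libraries, against 2397, 4143 and 956 CPM in controls, and their part in the Trim63 difference was not tested. Cblb had 20.3 and 23.5 CPM in the mural gate of frail libraries, against 25.1, 31.0 and 35.0 CPM in controls. The groups did not overlap, with a log2 fold change of -0.48 (SE 0.22, edgeR adjusted p = 0.979). Foxo3 had 39.3 and 43.1 CPM in the mural gate of frail libraries, against 48.1, 64.2 and 44.3 CPM in controls, a narrow gap with a log2 fold change of -0.34. These 3 of the 10 genes lay below every control and none above, against 10.5% below and 9.23% above among all genes. Since Trim63, 1 of the 3, passed the filter only through controls, the count is a description and gives no support for a shift of the set. Of the 10 genes 0 passed edgeR, as did 0 of 13152 genes (0%).

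In the macrophage gate, Cblb, which restrains receptor signalling in immune cells, had 21.1 and 13.5 CPM in the frail libraries (32 and 28 UMIs), against 31.0, 29.7 and 26.4 CPM in the controls (119, 73 and 85 UMIs). Both frail libraries lay below every control, with a log2 fold change of -0.74 (SE 0.29, 95% interval -1.41 to -0.08, edgeR adjusted p = 0.999). Foxo4 also lay below every control there, at 8.57 and 9.19 CPM in frail libraries, against 9.89, 13.4 and 14.6 CPM in controls. Of 11854 genes 9.36% lay below every control and 0% passed edgeR, and 9 of the 10 genes could be tested. Schwann cell markers summed to 1057 and 1324 CPM in this gate in frail libraries, against 259.8, 568 and 236 CPM in controls, with 5 of 5 Schwann genes at a fold change above 0, 3 of them at an unadjusted p under 0.05 and none past the adjusted edgeR threshold. Control 3 carried 2643 CPM of epithelial markers here. The part of either in the Cblb values was not tested.

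In the fibro-adipogenic gate, Foxo1 had 86.9 and 95.7 CPM in the frail libraries, against 105, 118 and 114 CPM in the controls. The groups did not overlap, with a log2 fold change of -0.32 (SE 0.16, 95% interval -0.68 to 0.04, edgeR adjusted p = 1.00). Of the 10 genes, Foxo1 was the only one with both frail libraries below every control in this gate, against 8.72% of 15156 genes, and 0 of the 10 passed while 1 gene (0.0066%) did. In the endothelial gate Foxo1 had 69.8 and 94.0 CPM in frail libraries, against 61.5, 70.7 and 86.9 CPM in controls, which overlapped. There 0 of the 10 genes had groups that did not overlap, against 14.9% of 13819 genes, and 0 of the 10 passed (0% of all genes). The difference of the Foxo1 fold changes, endothelial minus fibro-adipogenic, was 0.49 (SE 0.17, unadjusted p = 0.0206, limma adjusted p = 1.00), and that of Fbxo32 was -0.55 (SE 0.22, unadjusted p = 0.0349, limma adjusted p = 1.00). None of 13297 genes passed that test (0%), 564 of them at an unadjusted p of 0.05.

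In the satellite gate, Fbxo32 had 89.7 and 33.4 CPM in the frail libraries (68 and 31 UMIs), against 21.1, 23.9 and 37.8 CPM in the controls (6, 7 and 35 UMIs). Frail 1 stood above the rest and frail 2 was inside the control range. The log2 fold change was 0.98 (SE 0.41, 95% interval 0.11 to 1.85, edgeR adjusted p = 0.909). Frail 1 decided that value: it was 0.18 without frail 1, and 1.53 without frail 2, when it passed with an adjusted p of 0.0331. Foxo1 had 127 and 117 CPM in the satellite gate of frail libraries, against 201, 98.8 and 176 CPM in controls, and overlapped. Of the 10 genes, 7 could be tested here, 0 passed and 0 had groups that did not overlap, against 0.153% and 19.7% of 7849 genes. Satellite gates held 126 and 133 barcodes in frail libraries, against 45, 50 and 147 in controls. Over all barcodes outside the myofibre gate, Trim63 and Cblb lay below every control, against 9.69% of 19975 genes, and 0 of the 10 passed (0% of all genes).

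None of the other genes of the pathway passed edgeR over all barcodes. Of 23 other muscle ligases and their partners, 0 passed edgeR, 17 had fold changes below 0 (49.7% of all genes) and 6 lay below every control (9.94% of all genes), with a median of -0.13 against 0.00 for all genes. The lowest p values belonged to genes of muscle fibres, among them Klhl41, a stabiliser of sarcomere proteins, at 0.355 and 1.61 CPM in frail libraries against 15.3, 31.6 and 6.03 CPM in controls (log2 fold change -4.23, edgeR adjusted p = 0.622, DESeq2 adjusted p = 0.00668). DESeq2 also called Klhl40 (-3.58), Fbxo40 (-3.40) and Trim55 (-3.33), the muscle RING ligase related to Trim63. Each of these 4 lay below every control in both frail libraries, as the 12 myofibre markers did, and the part of myofibre content was not tested. Of 14 proteasome and ubiquitin genes, 0 passed, 8 were above 0 and 6 below 0 (49.7% of all genes below 0), with a median of 0.01. Uba1, the main ubiquitin-activating enzyme, had 62.7 and 69.5 CPM in frail libraries, against 78.3, 77.8 and 83.6 CPM in controls (log2 fold change -0.29, edgeR adjusted p = 0.924).

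Of 22 reported FoxO target genes, 0 passed over all barcodes, 13 were above 0 and the median was 0.09, where 49.7% of all genes were below 0 with a median of 0.00. Cdkn1b, the cell cycle inhibitor p27, had 97.6 and 115 CPM in frail libraries, against 62.6, 66.2 and 78.4 CPM in controls. Both frail libraries lay above every control, with a log2 fold change of 0.60 (SE 0.15, edgeR adjusted p = 0.570, DESeq2 adjusted p = 0.0183). The same held for Cdkn1b in the endothelial, fibro-adipogenic, mural and macrophage gates, with log2 fold changes of 0.36, 0.66, 0.71 and 0.89, none past the edgeR threshold. Of 16 upstream genes of insulin, myostatin, glucocorticoid and inflammatory signalling, 0 passed and 10 were below 0 (49.7% of all genes). Mstn, which encodes myostatin, was scarce, at 0.296 and 0.533 CPM in frail libraries, against 0.633, 1.18 and 0.590 CPM in controls (log2 fold change -0.99).

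The satellite gate held the only pathway gene past the edgeR threshold in any of the 8 comparisons. Txnip, a FoxO target that binds thioredoxin and limits glucose uptake, rose in it, with 1333 and 1415 CPM in frail libraries, against 416, 334 and 672 CPM in controls. Both frail libraries were well above every control, with a log2 fold change of 1.49 (SE 0.26, 95% interval 0.94 to 2.05, edgeR adjusted p = 0.0272, DESeq2 adjusted p = 0.000109). It no longer passed without control 1 (adjusted p = 0.329), without control 2 (0.255), with at least 2 Pax7 UMIs per barcode (0.107), with other gate genes allowed (0.282) or with a gate of 3 UMIs and 3 times each other gate gene (0.0984). Txnip was also among the FoxO targets with the smallest p in other comparisons. Its log2 fold change was 0.93 in the fibro-adipogenic gate, 0.40 in the macrophage gate and 0.62 over all barcodes, none past the edgeR threshold. Of 21 FoxO targets tested in the satellite gate, 18 were above 0, where 50.1% of all genes were below 0. Of these 21, 8 lay above every control, against 11.1% of all genes, with a median of 0.24 against -0.001 for all genes. The fibro-adipogenic gate had 19 of 22 FoxO targets above 0 (median 0.22), the mural gate 14, the macrophage gate 12 and the endothelial gate 9 (median -0.09). In these gates 49.2% to 51.4% of all genes were below 0. Of 12 genes called in the satellite gate, 11 were lower in frail libraries, and 4 of these were myofibre markers, which summed to 36.9 and 95.9 CPM in frail libraries, against 483, 1166 and 523 CPM in controls. Fibro-adipogenic markers, of which 6 of 6 tested were below 0 and 1 was called, summed to 862 and 716 CPM in this gate in frail libraries, against 881, 1527 and 2468 CPM in controls, and the part of either list in the Txnip difference was not tested.

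In the myofibre gate, Pdk4, the FoxO target that turns fibres from glucose towards fat, had 229 and 965 CPM in frail libraries, against 195, 374 and 118 CPM in controls. Frail 1 lay inside the control range, with a log2 fold change of 1.53 (SE 0.41, edgeR adjusted p = 0.121). Pdk4 passed edgeR without control 2 (adjusted p = 0.0186). It also passed with only barcodes that held no other gate gene (1.59, adjusted p = 0.0187). Its fold change was -1.07 without frail 2. Of 21 FoxO targets tested there, 0 passed, 13 were above 0 and the median was 0.11, where 63.3% of all genes were below 0 with a median of -0.23. Of these targets 4 lay above every control and 3 below, against 8.23% and 28.3% of all genes. Of 12 upstream genes tested, 11 were below 0 and 8 below every control, where 63.3% and 28.3% of all genes were, among them Nr3c1, the glucocorticoid receptor, at 0 and 12.2 CPM in frail libraries, against 50.6, 50.05 and 62.2 CPM in controls. The 0 of frail 1 allows up to 228.5 CPM, above every control.

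The genes most like each of the 10 across the 30 sums of 6 gates in 5 libraries were ranked by Pearson's r of log2(CPM + 1) among 12820 genes. The sums share libraries and depth, so r is a description. Trim63 was most like Trim54 (r = 0.977), its sarcomeric RING relative, then Ppp1r27 (0.974) and Klhl41 (0.973). Fbxo32 was most like Vdac1 (0.907), a channel of the outer mitochondrial membrane, then Mlycd (0.898) and Phb (0.896). Foxo1 was most like Bag3 (0.954), Foxo3 like Tnpo1 (0.981), Foxo4 like Zdhhc16 (0.926), Nedd4 like Ryk (0.982), Cblb like Cyb5a (0.946), Traf6 like Cyfip1 (0.955), Trim32 like Gypc (0.941) and Fbxo30 like Nufip2 (0.957).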

How the data were processed

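The authors deposited 1 matrix of UMI counts per gene and barcode for each library, and per the submitters' processing notes they were made with Cell Ranger 7.0.0 on GRCm38, with Seurat 4.1.2 also listed. No source used here gives the annotation, the barcode calling or any doublet removal. The series text gives the 5 libraries as separate mice. The 10 genes, the pathway lists and the tests were chosen with earlier results of these data known.

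UMIs were summed per library and gate over retained barcodes (at least 200 genes, at most 10% mitochondrial UMIs). No doublet caller was run, and outside the myofibre gate, barcodes with gate genes of several lineages fell in no gate. The myofibre gate admitted barcodes with other gate genes. Sums were tested with edgeR 4.0.16 (R 4.3.3; TMM, filterByExpr, robust quasi-likelihood, Benjamini-Hochberg at 0.05 over all genes), with DESeq2 1.42.0 as an alternative. Differences between gates in the frail effect used limma 3.58.1. Ratios and shares used exact permutation over libraries (scipy 1.17.1). Scripts were tested on simulated counts. Overlap of groups was read from plain CPM. From each pathway list, up to 4 genes with the smallest p per comparison are named. Totals of 66301294 to 88089633 UMIs per library support every sum over all barcodes, and Poisson intervals and floors cover counting error only. Alternatives were DESeq2, no low-count filter, the replicate number as a block, other mitochondrial limits and gates, and each library left out in turn. Gene positions and promoters came from GRCm38 tables; 52081 of 55357 gene IDs (94.1%) matched.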

Additional observations from a re-analysis of the deposited data

Results flagged for a closer look

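Trim63 lay on opposite sides of the controls in 2 gates. In the myofibre gate both frail libraries lay above every control, with a log2 fold change of 0.96, and in the mural gate both lay below every control, with a log2 fold change of -4.67. The mural values rest on 1 and 2 UMIs in frail libraries, against 10, 116 and 11 in controls. There the gene passed the low-count filter only through controls, so its mural fold change is a description. The difference between the 2 gates was not tested. Neither value passed its own edgeR test after adjustment.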

How the results depend on the processing

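None of the 10 genes passed an adjusted p of 0.05 in any main comparison of frail and control libraries. Of the 889 values they took in these comparisons under other settings, 804 kept their direction and their side of the threshold. Of the rest, 81 changed sign and 4 came to pass it. DESeq2 called 323 genes over all barcodes, 214 over non-myofibre barcodes, 58, 57, 115 and 30 in the endothelial, fibro-adipogenic, mural and macrophage gates and 1 in the myofibre gate, and put Foxo4 at 0.18 in the satellite gate. Without the low-count filter the calls were 15, 8, 173, 258, 35 and 16 in the same order and 98 in the satellite gate, with Foxo4 there at 0.022.

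The replicate numbers of frail and control libraries were not shown to pair mice: deviations of same-numbered libraries correlated at -0.033 and 0.15. With the replicate block, which leaves control 3 alone in its block, calls were 366, 178, 17, 33, 62 and 21, then 2 in the myofibre gate and 1 for the difference of endothelial and fibro-adipogenic effects. Trim63 passed there over all barcodes (-4.42, edgeR adjusted p = 2.07e-05) and over non-myofibre barcodes (-4.10, 0.000356). In the mural gate it passed as well (-4.95, 0.0284). It entered that mural test only through controls 1 and 2, so the mural value is a description and gives no support for a frail difference. Signs changed for Fbxo30 (all barcodes 0.12, non-myofibre 0.084, mural 0.046), Fbxo32 (endothelial 0.10), Trim32 (mural -0.35, macrophage -0.0020), Nedd4 (macrophage 0.085) and Foxo4 (satellite 1.26).

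At a limit of 5% mitochondrial UMIs signs changed for Fbxo30 (all barcodes 0.025, mural 0.054), Cblb (endothelial -0.049) and Traf6 (mural -0.048), and without barcodes of several gates for Fbxo30 (all barcodes 0.020). With at least 2 UMIs of the gate gene, calls were 2, 2 and 3 in the mural, macrophage and satellite gates, the mural share differed by 0.162 points, and signs changed for Trim32 (endothelial 0.0095, mural -0.16), Fbxo30 (fibro-adipogenic -0.029), Traf6 (mural -0.012) and Foxo4 (mural -0.093). With other gate genes allowed, the satellite gate had 3 calls, and signs changed for Cblb (endothelial -0.096), Fbxo30 (fibro-adipogenic -0.012), Foxo4 (fibro-adipogenic 0.0012, satellite 0.11), Trim32 (mural -0.13, macrophage -0.11) and Traf6 (mural -0.20, macrophage -0.070). A gate of at least 3 UMIs and 3 times each other gate gene, chosen after seeing the data, changed Trim32 (endothelial 0.24, fibro-adipogenic 0.0067, mural -0.46), Fbxo30 (fibro-adipogenic -0.021), Foxo4 (fibro-adipogenic 0.056, mural -0.32), Traf6 (mural -0.19), Nedd4 (macrophage 0.12) and Cblb (satellite 0.088). The myofibre gate had 66 calls at 2% Ckm and Acta1, with Fbxo30 at -0.63, 0 at 10%, where frail 1 had no barcode, and 4 when no other gate gene was allowed.

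Leaving out each library in turn gave the following ranges of log2 fold change. Over all barcodes: Fbxo30 -0.34 to 0.22, Trim32 -0.36 to 0.10, Foxo4 -0.44 to 0.19, Gabarapl1 -0.0030 to 0.56. Over non-myofibre barcodes: Fbxo30 -0.36 to 0.19, Fbxo32 -0.19 to 0.21, Trim32 -0.38 to 0.083, Foxo4 -0.42 to 0.22. In the endothelial gate, with 0 to 2 calls: Cblb -0.050 to 0.13, Fbxo30 -0.54 to 0.22, Trim32 -0.22 to 0.0050, Fbxo32 -0.43 to 0.084. In the fibro-adipogenic gate, with 0 to 2 calls: Fbxo30 -0.22 to 0.27, Trim32 -0.35 to 0.027, Nedd4 -0.0059 to 0.084, Traf6 -0.44 to 0.049, Foxo3 -0.19 to 0.061, Foxo4 -0.63 to 0.28. In the mural gate, with 0 to 11 calls and a share difference of -1.90 to 0.899 points: Fbxo30 -0.092 to 0.064, Trim32 -0.34 to 0.26, Traf6 -0.14 to 0.19, Foxo4 -0.28 to 0.42, Acvr2b -0.0073 to 0.80. Trim63 fell under the low-count filter there without control 1 or control 2. In the macrophage gate: Trim32 -0.78 to 0.62, Nedd4 -0.63 to 0.28. In the satellite gate, with 6 to 100 calls: Fbxo30 -0.63 to 0.66, Foxo4 -0.44 to 0.19. In the myofibre gate, with 0 to 9 calls: Fbxo30 -0.39 to 2.14, Fbxo32 -0.95 to 1.70, Foxo1 -8.54 to 0.24, Foxo3 -6.73 to 1.13, Pdk4 -1.07 to 2.11, Eif4ebp1 -0.16 to 1.80, Tnfrsf12a -0.75 to 1.23. The difference of endothelial and fibro-adipogenic effects had 0 to 1 calls. The cause of these shifts was not tested, and the depth of frail 1 in the myofibre gate limits every value there.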
